A study of Mus musculus with 6 samples.

Results

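Untreated dermal fibroblasts of newborn mice were profiled on 2 arrays, the untreated controls of a series of 6, and their expression profile is described here on its own. Both control arrays were taken by their title, and 1 signal per gene, that of its brightest probe set, was ranked over 18193 genes. The cells expressed a dense collagen and fibulin matrix, a contractile actin cytoskeleton and a dermal set of mesenchymal transcription factors. Smooth muscle actin was the brightest actin by 1 of its 3 probe sets. Markers of epidermal, endothelial, blood, melanocytic and skeletal muscle cells mostly lay at the background of the array, whereas most of those of pericytes and smooth muscle passed it.

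Dermal fibroblasts are the mesenchymal cells of the skin. They secrete the fibrillar collagens, elastic fibre proteins, proteoglycans and adhesive glycoproteins of the dermis, and they carry receptors for platelet-derived growth factor, transforming growth factor beta and integrin ligands. On plastic in serum such cells are known to build stress fibres and to take on features of myofibroblasts, the contractile cells of wound repair, with alpha smooth muscle actin as the usual marker.

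Cells came from skin explants of mice 0 to 2 days old and were at passage 4. The X chromosome carried a GFP transgene, under a chicken β-actin promoter with a CMV enhancer, inherited from sires of a mixed 129/ICR stock crossed to BL6 dams; the strain label itself reads B6. The study used heterozygous females so that GFP is silent in cells in which the transgenic X is inactivated, and all 3 groups are described as sorted for such GFP-negative cells at the outset. Control cells then spent 48 hours without drug and 24 hours in normal medium. The GFP_negative and GFP_positive groups, 2 arrays each, spent 48 hours in 4 μM 5-aza-2'-deoxycytidine, a nucleoside that blocks maintenance of DNA methylation, then 24 hours in normal medium, and were sorted again by GFP. The title and source of the controls call them unsorted, while their description gives the first sort. For control replicate 2 the sort entry is missing. Whether the controls had been sorted for absence of GFP is thus not settled by the labels. Control replicate 1 is labelled female and control replicate 2 as of mixed sex, whereas all 4 treated arrays are labelled female. The replicates are called biological, with nothing said of litters or pools, so the spread between them is the spread between these cultures as labelled.

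Both control arrays had the same scale, a 2% trimmed mean of 500.003 and 500.004 MAS5 units. Replicate 2 was dimmer at the low end, with a median over all probe sets of 79.9 against 123 on replicate 1. A background level was set on each array from 71 genes of organs foreign to skin (liver, pancreas, retina, brain, kidney, lung, gut, testis, pituitary and others), as the 90th percentile of their signals. It came to 147 on replicate 1 and 100.0 on replicate 2. A gene is called above background where it passed this level on both arrays, and near background where it passed on neither. The genes described belong to lists by role, in which 483 of 809 measured members were above background (59.7%, beside 54.2% of all genes). List members without a probe set of a single gene symbol are not analysed here. Array signal depends on the probe as well as on the transcript, so ranks order signals and not transcript numbers. Rank also went with the number of probe sets of a gene. The median percentile was 32.0 for genes with 1 probe set and 73.6 for those with 4 or more. In genes above background with several probe sets, the brightest exceeded the dimmest by a median of 6.8-fold. How far the choice of the brightest one sets the ranks was not tested. Less RNA per cell and fewer expressing cells cannot be told apart in these bulk samples. All control signals below are written as replicate 1/replicate 2.

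The 6 marker genes given for these cells, which were chosen with earlier results of these data known, were all above background. Col1a1, the alpha 1 chain of type I collagen, read 27808/21661. Thbs2, the matrix protein thrombospondin 2, read 17300.0/16699.6. Fbln5, a fibulin of elastic fibres, read 13877/17556. These are among the bright signals of the profile. Ccn3, a matricellular protein, read 15436/9777, and Prrx1, a homeobox factor of limb and dermal mesenchyme, read 6275/6484. The Ccn3 probe set ends in _x_at, a design class that can bind transcripts of other genes. Lum, the collagen-binding proteoglycan lumican, was the dimmest of the 6 at 2319.8/934, and replicate 1 was the higher array. Of 21 measured fibroblast surface markers, a wider list, 16 were above background (76.2%, beside 54.2% of all genes).

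Of 18193 genes, 9862 (54.2%) were above background on both arrays, 6601 (36.3%) were near background on both, and 1730 passed on 1 array. Ranks agreed well among expressed genes. The Spearman correlation across genes, which are not independent replicates, was 0.92 over all genes and 0.94 over those above background, but 0.31 over those near background. Of genes above background, 9167 (93%) lay within 2-fold on both arrays, computed on log2 of the signal plus an offset of 30.64. Of the 1819 genes in the top 10% of each array, 1596 were shared, which is 8.77% of all genes, and 1553 of these lay within 2-fold. Apart by over 4-fold were 347 genes higher on replicate 1 (1.91%) and 27 higher on replicate 2 (0.148%). Among genes above background these counts were 31 (0.314%) and 4 (0.0406%).

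**Figure D1:**
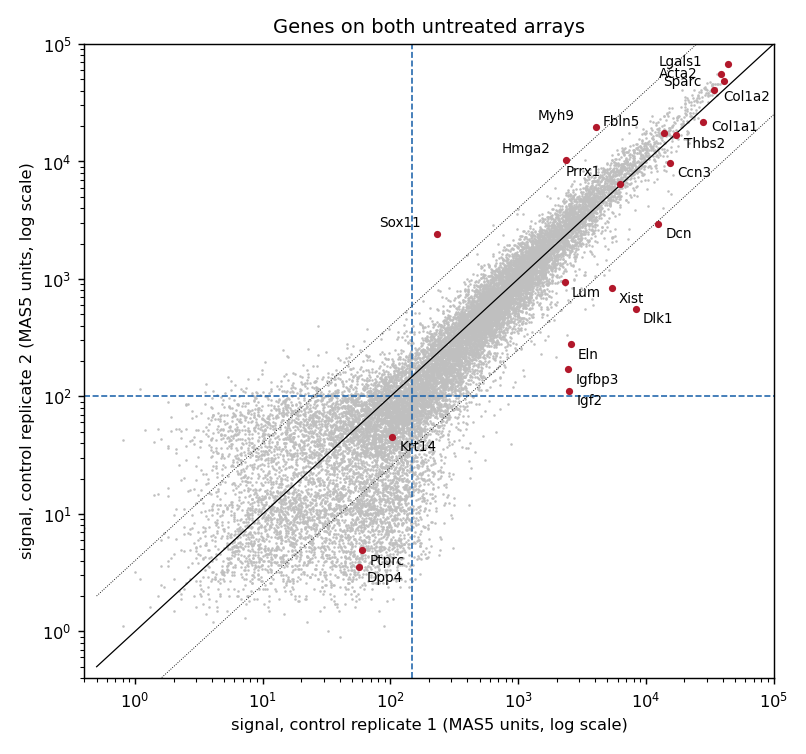
Signal of each gene on control replicate 1 (x axis) and control replicate 2 (y axis), in MAS5 units on log scales; grey points are the 18193 genes and red points are named genes. Dashed lines mark the background levels of 147 and 100.0, the solid line equality and the dotted lines 4-fold differences; bright genes hug the diagonal, while Igf2, Igfbp3, Eln and Dlk1 fall far below it and Sox11 lies far above it.

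The 25 brightest genes encoded ribosomal proteins, 12 in number, a translation factor, cytoskeletal proteins, secreted proteins and the product of Tpt1. They held 4.53% and 5.33% of the summed signal of all genes on replicate 1 and replicate 2. Lgals1, the secreted lectin galectin-1, ranked first on both arrays, at 43739.6/67913. Cytoskeletal genes followed. Acta2, alpha smooth muscle actin, read 38437/55288. Vim, the mesenchymal intermediate filament vimentin, read 36593/45535. Actg1, cytoplasmic gamma actin, read 36021/46019, and Actb, its beta counterpart, 33203/45072. The actin-sequestering thymosins Tmsb10 and Tmsb4x read 31996/47651 and 32675/43724. Secreted matrix genes were as bright. Sparc, a collagen-binding glycoprotein of remodelling matrix, read 40917/48569. Col1a2 read 34259/40731 and Col3a1, of type III collagen, 31909/39809. Bgn, the small proteoglycan biglycan, read 34049.7/38016. The translation factor Eef1a1, at 39121/48335, and Tpt1, the translationally controlled tumour protein, at 34542/45673, completed the set. For 12 of the 25 the brightest probe set, its name ending in _s_at or _x_at, belongs to a design class that can bind transcripts of other genes, so near-identical family members, actins and ribosomal proteins above all, may share these signals. For 9 more it ends in _a_at, a class for several transcripts of 1 gene.

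Fibrillar collagens, which form the tensile fibres of the dermis, were a bright group. Of 11 genes, 8 were above background (72.7%, beside 54.2% of all genes). On both arrays 5 stood in the top 10% (45.5%, beside 8.77%). The bright members were the chains of types I, III and V. Besides Col1a1, Col1a2 and Col3a1, Col5a2 read 27350.4/35710.0 and Col5a1, which nucleates type I fibrils, read 24006/23784. Col11a1, the type XI chain better known from cartilage, was above background at 5410.2/2278. Col5a3 was dimmer at 1689.6/560.1. Col2a1, the collagen of hyaline cartilage, passed on replicate 1 alone at 269/12.3, and Col11a2 was near background at 117/31.7.

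Other collagens split into bright and silent members, with 15 of 28 measured genes above background (53.6%, beside 54.2% of all genes). The top 10% held 8 (28.6%, beside 8.77%). Type IV chains of basement membrane and type VI chains of beaded microfilaments led. Col4a1 read 19547/20849 and its partner Col4a2 11508/10474. Col6a1, Col6a2 and Col6a3, which assemble into 1 trimer, read 14301/8369, 13646/11053 and 13878/9076. Col12a1, a collagen on the surface of fibrils, read 13542/4008, and the arrays differed by over 2-fold there. The type IV chains known from kidney glomerulus were unequal. Col4a3 and Col4a4 were near background at 56.5/12.1 and 67.8/12.4, while Col4a5, their partner chain, stood in the top 10% at 6154/4757.5. Near background too were Col10a1, of hypertrophic cartilage, at 7.7/8.5 and Col17a1, of the epidermal anchoring complex, at 7.7/4.9. Col7a1, which anchors the epidermis from below and is made by keratinocytes and fibroblasts, was above background at 927/938.

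Nearly the whole machinery of collagen folding and cross-linking was expressed, with 21 of 22 measured genes above background (95.5%, beside 54.2% of all genes). The top 10% held 12 (54.5%, beside 8.77%). Pcolce, the enhancer of procollagen C-proteinase, read 27411/32679, and Lox, lysyl oxidase, 26472/32366. Serpinh1, the collagen chaperone HSP47, read 25445/23563. P4hb, the beta subunit of prolyl hydroxylase, read 19268/20327, and Ppib, the prolyl isomerase of the endoplasmic reticulum, 13985/24179.9. Tgm2, the cross-linking transglutaminase, differed most of these, at 974/3568. Adamts3, a procollagen N-proteinase, was the member near background, at 121/62.2.

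Matrix glycoproteins had 25 of 38 members above background (65.8%, beside 54.2% of all genes) and 15 in the top 10% (39.5%, beside 8.77%). Adhesive and matricellular proteins were bright. Postn, periostin, read 32733/37055, Thbs1, thrombospondin 1, read 29194/36657, and Fn1, fibronectin, 23829/30195. Tnc, the tenascin of developing and wounded tissue, read 14709.9/16937. Of 6 CCN genes, a family of matricellular growth regulators, 5 stood in the top 10%. Ccn2, known as connective tissue growth factor, read 20299.9/28900.2, and Ccn1, known as CYR61, 14646/12636. Ccn6 was the exception, at 75.4/73. Laminins, the cross-shaped trimers of basement membrane, separated by chain. Lamb1 read 5204/9349.5, Lamc1 2667/1313 and Lama4 3329/1151, whereas Lama3 and Lamb3 of the epidermal laminin were near background at 112/13.3 and 45.3/3.5. Tnr, the tenascin of brain, read 17.7/4.6 and Thbs4, a thrombospondin of tendon and muscle, 32.8/8.7.

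Proteoglycans had 18 of 27 members above background (66.7%, beside 54.2% of all genes) and 6 in the top 10% (22.2%, beside 8.77%). Of those 18, 10 lay within 2-fold on both arrays, beside 93% of all genes above background. Gpc4, a cell surface glypican, was even at 10266/13004, as was Ogn, osteoglycin, at 3481/3494. Dcn, decorin, the main small proteoglycan of dermis, read 12516/2957, over 4-fold higher on replicate 1. Aspn, its relative asporin, read 15017/5567. Prelp, which links basement membrane to collagen, read 3795/670.2, and Hspg2, perlecan, read 3336/554. The syndecans, transmembrane proteoglycans, included Sdc1 at 3634/3241 and Sdc2 at 1933/4299.5. Acan, the aggrecan of cartilage, was near background at 79.4/16.3, as were Ncan, neurocan of brain, at 31.6/53.2 and Kera, the corneal keratocan, at 7.8/6.1. Bcan, brevican of brain, just passed on both arrays at 149.7/133.

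All 15 measured elastic fibre and microfibril genes were above background, as were 54.2% of all genes. The top 10% held 4 (26.7%, beside 8.77%). Fbln2 led at 26145/29261, followed by Fbln5. Mfap5, a microfibril protein, read 9292/7618 and Efemp1, fibulin-3, 6041/5714. The scaffold Fbn2 read 2655/835. Eln itself, which encodes tropoelastin, read 2577/278, and Mfap4, which binds it, 1966/215, so both were over 4-fold higher on replicate 1. Both still passed the background level of 100.0 on replicate 2, where the median over all genes was 170.0. Latent TGF-beta binding proteins ranged from Ltbp2 at 5861/2111 to Ltbp4 at 449/248.

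Proteases and their inhibitors had 24 of 33 members above background (72.7%, beside 54.2% of all genes). The top 10% held 17 (51.5%, beside 8.77%), with serpin and Timp genes among the brightest. Serpinf1, the secreted serpin PEDF, read 30493/32313. Timp2, Timp3 and Timp1, inhibitors of matrix metalloproteinases, read 20221/27670.0, 20487/15574 and 11190.2/18442. Among the metalloproteinases, the membrane-bound Mmp14 read 16279/7624 and its substrate Mmp2, gelatinase A, 3853/3804. Mmp2 was even on both arrays. Cathepsin L, encoded by Ctsl, read 17378/22523. Of the inducible metalloproteinases, Mmp3 was near background at 104/79.9, Mmp10 at 73.2/11.7 and Mmp13 at 5.4/4.1, while Mmp9, gelatinase B, passed on replicate 1 alone at 170.0/92.7. Plau, urokinase, was near background too at 67.7/12.9, while Plat, the tissue-type activator, read 3835/2819.5.

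**Figure D2:**
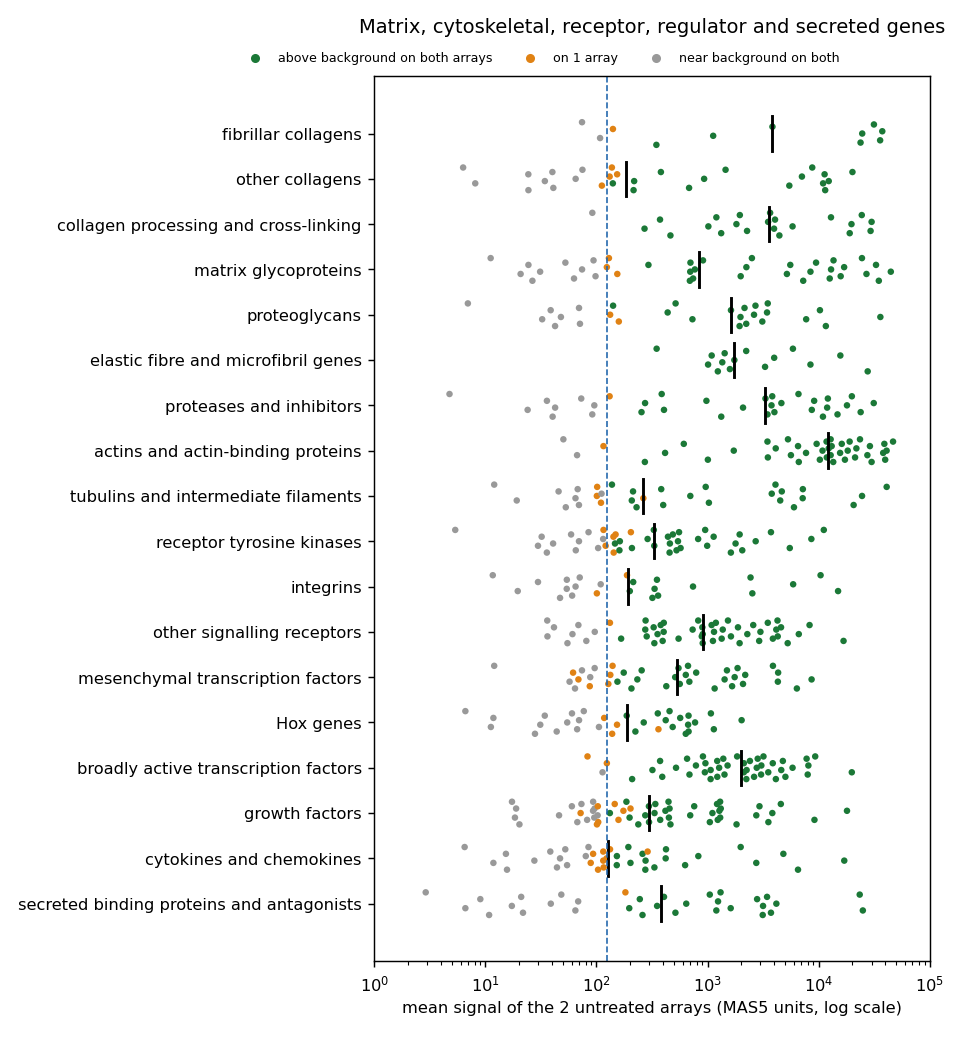
Mean signal of both untreated arrays in MAS5 units (log scale) for each measured gene of 18 gene groups; green points passed the background level on both arrays, orange on 1 and grey on neither. Black bars are group medians and the dashed line is the mean of both background levels; the actin group sits furthest to the right, and the Hox, integrin and cytokine groups straddle the line.

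Actins and actin-binding proteins were the brightest structural group, with 39 of 42 members above background (92.9%, beside 54.2% of all genes). The top 10% held 33 (78.6%, beside 8.77%). The median signal of the group was 12171 on replicate 1 and 12384 on replicate 2, against 243 and 170.0 over all genes. Contractile genes of smooth muscle and stress fibres were prominent. Tagln, the calponin-like protein SM22, read 23475/34545, Tpm2, a tropomyosin, 19172/40919, and Myl9, a regulatory myosin light chain, 21392/33664. Cnn1, smooth muscle calponin, read 7280.2/11941 and Actg2, enteric smooth muscle actin, 9374/15327. Cald1, caldesmon, read 22725/24509. Members of differentiated muscle were lower. Myh11, the smooth muscle myosin heavy chain, read 408/816, and Actc1, cardiac actin, 361/184. Actn2 and Actn3, the sarcomeric actinins, read 64.5/36.2 and 215/16.7, and only the latter passed, on replicate 1. The ubiquitous Actn1 and Vcl, vinculin of focal adhesions, read 12679/18588 and 12823/14298. For Acta2 the signal rests on 1 of 3 probe sets, since the other probe sets read 424/1060.0 and 267/125.

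Promoter windows of this group are shown because several share a feature that the ranking did not use. The CArG box, the site that serum response factor is known to bind in actin and contractile genes, was searched on both strands in RefSeq windows of GRCm38.p6 from 250 bases before to 50 after a gene's start. It occurred in 6 of the 37 windows of the group (16.2%), those of Actg1, Acta1, Actc1, Cnn2, Myl9 and Vcl. It occurred in 1.4% of the 14452 measured genes with a window, and in 1.6% of all 27025 genes with one. A match is a string of letters and not a site shown to be bound. In the first pair of windows the box is in capitals, 90 bases before the start of Actg1 (chr11:120348446-120348745, minus strand) and 161 bases before that of Myl9 (chr2:156775214-156775513, plus strand):
Actg1: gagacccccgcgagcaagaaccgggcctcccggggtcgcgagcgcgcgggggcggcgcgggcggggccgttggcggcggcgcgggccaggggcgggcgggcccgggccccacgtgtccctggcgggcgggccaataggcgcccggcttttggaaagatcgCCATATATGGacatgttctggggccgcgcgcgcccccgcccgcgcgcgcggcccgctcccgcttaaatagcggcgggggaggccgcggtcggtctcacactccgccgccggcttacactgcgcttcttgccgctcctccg
Myl9: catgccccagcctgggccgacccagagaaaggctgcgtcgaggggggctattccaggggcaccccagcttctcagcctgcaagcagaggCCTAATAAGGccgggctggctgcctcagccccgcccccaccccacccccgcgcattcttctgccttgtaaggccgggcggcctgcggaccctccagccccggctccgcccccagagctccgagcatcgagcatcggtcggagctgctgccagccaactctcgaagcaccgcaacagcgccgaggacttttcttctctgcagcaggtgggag
The window of Acta2 (chr19:34255324-34255623, minus strand), the second brightest gene, held no exact CArG box, that is CC, then 6 A or T, then GG. It does hold ccctatatgg and ccttgtttgg, each a single base off that pattern. Near matches were not counted in any window, so the 6 of 37 are exact matches only. The Acta2 window is shown with its 6 CpG dinucleotides in capitals, beside the 50 counted in that of Actg1:
Acta2: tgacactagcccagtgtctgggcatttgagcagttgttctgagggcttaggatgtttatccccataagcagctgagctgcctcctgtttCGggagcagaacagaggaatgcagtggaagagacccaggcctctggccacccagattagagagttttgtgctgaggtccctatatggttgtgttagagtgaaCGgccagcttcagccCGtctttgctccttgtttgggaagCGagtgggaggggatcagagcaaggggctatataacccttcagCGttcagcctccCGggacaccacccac

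Tubulins and intermediate filaments had 19 of 31 members above background (61.3%, beside 54.2% of all genes). The top 10% held 9 (29.0%, beside 8.77%). Vim was the brightest of the intermediate filaments. Its promoter window (chr2:13574061-13574360, plus strand) is shown with the hexamer TATAAA in capitals, which begins 32 bases before the start:
Vim: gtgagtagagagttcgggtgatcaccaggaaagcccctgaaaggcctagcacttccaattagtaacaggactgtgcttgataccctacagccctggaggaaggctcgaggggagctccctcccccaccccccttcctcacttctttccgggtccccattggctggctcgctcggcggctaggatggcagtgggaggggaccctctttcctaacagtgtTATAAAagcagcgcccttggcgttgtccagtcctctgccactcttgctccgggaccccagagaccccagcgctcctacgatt
Lmna, the nuclear lamin of differentiated cells, read 6436/7958 and Lmnb1, a lamin of B type, 1234/825. Tuba1a, an alpha tubulin, read 21076/28208 and Tubb5, a beta tubulin, 17575/23814. Nes, nestin, was above background at 407/391, and Tubb3, a neuronal class tubulin, at 363/403. Of the simple epithelial keratins, Krt19 and Krt18 were above background at 462/939 and 211/249, while Krt8 and Krt7 passed on replicate 2 alone at 93.9/126 and 65.7/136. Desmin and the neurofilaments were near background, Des at 129/10.5, Nefl at 84.4/6.8, Nefm at 29.9/8.4 and Nefh at 15.6/8.4.

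Of 45 receptor tyrosine kinases, 28 were above background (62.2%, beside 54.2% of all genes) and 5 stood in the top 10% (11.1%, beside 8.77%). Pdgfrb, the receptor for PDGF-BB, led at 13838/8464. Axl, the receptor of Gas6, read 8339/8894 and was even, as was Ryk, a Wnt receptor, at 5517/5497. Collagen receptors followed, with Ddr1 at 4091/3365 and Ddr2 at 2739.8/2691. Pdgfra, a general fibroblast marker, read 2180.4/1067, Fgfr1 2228/1667, Igf1r 1582/1997 and Egfr 1215/691. Epha3, an ephrin receptor, read 1097/890.0. Kit of melanocytes and mast cells was near background at 60.1/4.1, Erbb4 at 50.7/8.8 and the endothelial Tie1 at 6.1/4.6. Met, the receptor of hepatocyte growth factor, was low but above background at 323/334.

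Integrins, the receptors by which cells hold the matrix, had 12 of 24 members above background (50%, beside 54.2% of all genes) and 3 in the top 10% (12.5%, beside 8.77%). Itgb1, the common beta 1 chain, read 13163/16820.2. Itgav, which binds vitronectin and fibronectin, read 11782/9077, and Itgb5, one of its partners, 5317/6497. Itga8 and Itga5, chains for nephronectin and fibronectin receptors, followed at 2748/2321 and 2503/2379. Itga1, of a collagen receptor, read 699/782. The epithelial chains Itgb4 and Itgb6 were near background at 12.8/10.5 and 91/3.0, as were Itgal and Itgax of leukocytes at 35.5/24 and 19.7/19.4. Itga2 and Itga10, of other collagen receptors, were near background at 137/81.5 and 98.6/22.2.

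Other signalling receptors were broadly present, with 42 of 51 above background (82.4%, beside 54.2% of all genes). The top 10% held 11 (21.6%, beside 8.77%). F2r, the thrombin receptor PAR1, led at 17936/15644, and Cd44, the hyaluronan receptor, read 8061/8538. Tgfbr2, the type II receptor for TGF-beta, read 4309.6/4269 and Tgfbr1 1749/1307. Bmpr2 and Bmpr1a, for bone morphogenetic proteins, read 2510.4/3482 and 2328/2239.6. Il6st, the shared signalling chain of the interleukin-6 family, read 3480.1/3501 and Osmr, for oncostatin M, 4418/3909.5. Among Wnt receptors Fzd2 read 4464/4074, Fzd1 2703/2460.0 and Fzd7 2328/1435, while Fzd9 was near background at 98.8/10.8. Smo, the hedgehog transducer, was above background at 1519/1225, and Ptch1 was low at 334/233. Prostaglandin receptors separated, with Ptger4 at 1291/949 and Ptger3 at 66.3/5.8.

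Surface markers used for fibroblasts divided sharply, with 16 of 21 measured above background and 5 near it. S100a4, also called FSP1 and in fact a cytoplasmic protein, read 20831/27147. Cdh11, the mesenchymal cadherin, read 21021/17066, Thy1 17376/15795 and Pdpn, podoplanin, 5142/4889.8. Vcam1, an adhesion molecule, read 4377/5476. Cd34 and Dpp4, markers of dermal progenitors, were near background, at 94.7/50 and 56.8/3.5. So were Nt5e at 115/96.2, Icam1 at 77.2/11.1 and Mme at 44.7/8.0.

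Mesenchymal transcription factors had 26 of 38 members above background (68.4%, beside 54.2% of all genes) and 5 in the top 10% (13.2%, beside 8.77%). Nfix, of the nuclear factor I family, read 10318/6996. Besides Prrx1, Twist2, the dermal basic helix-loop-helix factor Dermo1, read 3904/4748. Snai2, the zinc finger factor Slug, read 3749/4854, and Klf4 4461/3308. Twist1, Snai1 and Zeb1, also known from epithelial-mesenchymal transition, read 2248/1264, 2049/944 and 1629/2548. Tbx15, which patterns dorsal skin, was even at 1689/1642, and Osr1 read 1265/1054. En1, a marker of a scar-forming dermal lineage in the back, read 794/302. Hedgehog effectors Gli2 and Gli3 were even, at 707/666 and 785/797, and Gli1, itself a hedgehog target, was near background at 109/66.9. Lef1, a Wnt effector of neonatal papillary dermis, was near background at 129.8/62.9. Foxd1 read 5.8/18.2 and Meox2 76.5/38.

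Hox genes keep a record of body position in fibroblasts. Of 33 measured, 16 were above background (48.5%, beside 54.2% of all genes). None reached the top 10% on both arrays, where 8.77% of all genes did. Members of trunk paralog groups were brightest. Hoxc8 read 1619.6/2438, Hoxd8 1112/1169, Hoxc6 1110.1/1036 and Hoxa9 770.2/775. Hoxc10 and Hoxa10 read 931/419 and 848/490.4. The measured genes of the last paralog group were near background, Hoxa13 at 81.6/38.8, Hoxb13 at 4.4/8.8, Hoxc13 at 9.2/13.2 and Hoxd13 at 93/46.4. So were Hoxd11 and Hoxd12 at 9.0/14.6 and 17.5/44.9, while Hoxa11 passed at 296/153. Hoxb1 and Hoxd1, of the most anterior group, were near background too, at 91.9/17.2 and 44/11.9. Hoxa5 differed between arrays, at 674/49.5, and Hoxa7 in the other direction, at 57.6/249.

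Broadly active transcription factors were above background in 43 of 46 cases (93.5%, beside 54.2% of all genes). The top 10% held 14 (30.4%, beside 8.77%). Ybx1 read 16385/23474 and Atf4, the effector of the integrated stress response, 8626/10037. Yap1 and Wwtr1, coactivators that respond to matrix stiffness, read 3829/5712 and 4139/4115, with their partner Tead1 at 2871/3238. Hif1a was even at 7769/7843. Among immediate early genes Fos read 3882/595 and Egr1 3594/1957, both higher on replicate 1, while Fosb and Atf3 were at 151/15.4 and 132/116. Factors that define other lineages were above background in 5 of 36 cases (13.9%, beside 54.2% of all genes). None stood in the top 10%, where 8.77% of all genes did. Those 5, with their signals low, were Esrrb at 281/232, Mitf at 256/229.9, Cebpa at 296/114, Sox10 at 210.1/138 and Grhl2 at 186/106. The regulators of muscle, Myf5 and Myog, read 4.3/1.8 and 10.6/8.9, those of pluripotency, Nanog and Pou5f1, 10.5/4.8 and 9.9/26.4, and Sox2 4.6/2.6.

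Growth factors had 33 of 55 members above background (60%, beside 54.2% of all genes) and 6 in the top 10% (10.9%, beside 8.77%). Ptn, pleiotrophin, a heparin-binding factor, read 21574/14499.8. Gas6, the ligand of Axl, read 11641/6734, so both ligand and receptor were bright. Inhba, which forms activin A, read 3575/5574, Tgfb3 4268/3403 and Fgf7, the keratinocyte growth factor made by mesenchyme, 2909/4159. Pdgfc, a ligand of the alpha receptor, was even at 2894/2982, and Pdgfb was near background at 138/52.9. Vegfd, a lymphangiogenic factor, read 4169/1332 and Hbegf, a ligand of the EGF receptor, 1099/2553. Wnt5a read 1111/1447, while Wnt10b was near background at 76.4/15.7. Bmp2 and Gdf5, of the bone morphogenetic protein family, were near background at 30.7/6.2 and 21.3/13.4, and Bmp4 was just above at 157/108. Igf1 read 942/455. Igf2, the imprinted fetal growth factor, read 2521/112, the widest gap of any gene above background.

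Cytokines and chemokines had 17 of 38 members above background (44.7%, beside 54.2% of all genes) and 4 in the top 10% (10.5%, beside 8.77%). Mif, macrophage migration inhibitory factor, read 12494/21595, Csf1, the macrophage growth factor, 6810.0/6253 and Cxcl12, the stromal chemokine, 3748/5895. Ccl7 and Ccl2, which attract monocytes, read 2569/2930.0 and 2094/1885. Il6 read 623/1031. The acute inflammatory genes Tnf, Il1a and Cxcl2 were near background, at 37.9/17.3, 7.4/5.6 and 17.3/6.3. Cxcl1 and Il33 were over 4-fold higher on replicate 1, at 1091/166 and 716/124. Cxcl5 read 532/46.3.

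Secreted binding proteins and antagonists had 20 of 32 members above background (62.5%, beside 54.2% of all genes). The top 10% held 5 (15.6%, beside 8.77%). Igfbp7 and Fstl1, a follistatin-like protein, led at 22395/27707 and 23885/23073. Igfbp6, which prefers IGF-II, read 3871/4468, Igfbp2 3654/3222 and Igfbp4 5381/2076. Grem1, a BMP antagonist, read 2913/2682 and Fst, the activin antagonist follistatin, 5131/1196. Sfrp1, a secreted Wnt inhibitor, read 4845/1438 and Dkk3 1684/1552, whereas Dkk1 was near background at 108/20.8 and Wif1 at 1.8/4.0. Nog, the BMP antagonist noggin, read 91.4/5.1. Of 14 complement and lipid carriers 7 were above background (50%, beside 54.2% of all genes) and none stood in the top 10%, where 8.77% of all genes did. Lpl, lipoprotein lipase, read 3093/843 and Pltp, the phospholipid transfer protein, 1874/1254, while Apoe and Cfb were near background at 107/23.7 and 12/24.8.

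Lists of skin layers gave a mixed picture. Of 16 papillary and dermal papilla genes 6 were above background (37.5%), and of 11 measured reticular and hypodermal genes 6 were (54.5%). Over all genes the share was 54.2%. Crabp1, a retinoic acid binding protein of upper neonatal dermis, was the brightest papillary gene at 2211/4184. Corin, of dermal papilla, read 35.2/33.4. Mfap5 and Plac8, of deep fibroblasts, read 9292/7618 and 8357/8247, and Dpt, dermatopontin, 2162/541. Dlk1, a marker of reticular precursors, read 8339.8/557. The layers were not set against each other in a test.

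Defining markers of other cell types were mostly near background, whereas 54.2% of all genes were above it on both arrays. Of 18 keratinocyte markers 3 were above it, Krt10 at 321/218, Epcam at 331/168 and Krt6a at 225/139. The basal keratin Krt14 read 103/45.1 and E-cadherin, Cdh1, 15.4/17.4. Of 13 endothelial markers 2 passed, Flt1 at 562/489.9 and Egfl7 at 214/323, while Pecam1 and Tie1 read 11.7/9.0 and 6.1/4.6. Of 17 leukocyte markers only Csf1r passed, at 546/539, and the pan-leukocyte Ptprc read 60.1/4.9. Melanocyte markers passed in 2 of 10 cases, Slc45a2 at 157/212 and Sox10, with Mlana at 46.7/3.3 and Dct at 12.2/80. Of 20 skeletal muscle markers Tnnc1 passed at 299.7/211, and Acta1, skeletal alpha actin, was in the top 10% at 4084/9193. Myosins and creatine kinase of muscle did not pass on both arrays, Myh1 at 36.3/22.8, Myh3 at 119/6.6 and Ckm at 165/56. Of 11 adipocyte markers Fabp4 passed at 473/1617 and Cebpa also passed, with Adipoq at 52.3/10.1. Of 8 measured Schwann cell markers Pmp22, which fibroblasts also express, was bright at 8039.9/10634, Sox10 was low, and Erbb3 was near background at 76.7/53.6. None of 11 cartilage and bone markers and none of 5 erythroid markers passed on both arrays. Pericyte and smooth muscle markers passed in 10 of 14 cases (71.4%), led by Acta2, Actg2 and Cnn1. Rgs5 of pericytes read 242/292, and Des, Kcnj8 and Higd1b were near background at 129/10.5, 91.6/71.8 and 27.1/41.9.

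**Figure D3:**
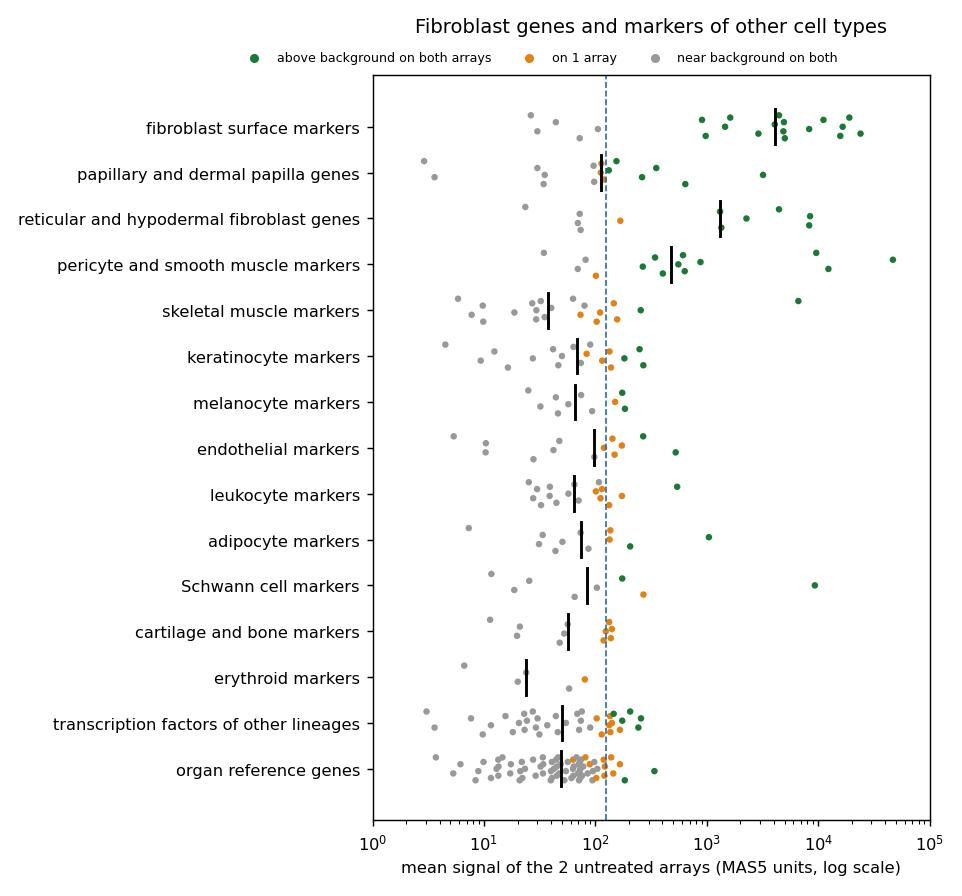
Mean signal of both untreated arrays in MAS5 units (log scale) for fibroblast gene groups, markers of other cell types and the organ reference genes that set the background; green points passed on both arrays, orange on 1 and grey on neither. Black bars are group medians and the dashed line is the mean of both background levels. Fibroblast surface, smooth muscle, and reticular and hypodermal genes lie mostly right of the line, and the other groups lie mostly left of it.

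The genes that disagreed between the control arrays were of many kinds, and no group was tested among them. Among the 31 genes above background and over 4-fold higher on replicate 1 were the growth regulators Igf2, Dlk1 and Igfbp3, the last at 2452/169.8, the matrix genes Eln, Mfap4, Hspg2, Prelp and Dcn, and Fos, Nfib, Cxcl1, Il33 and Fst. Nfib, of the nuclear factor I family, read 903/120.3. Of these 31 genes, 19 had several probe sets above background on at least 1 control array, and for 12 of the 19 every such probe set was over 2-fold higher on replicate 1. The second probe set of Igfbp3 read 1694/186, and that of Eln 926/9.3. The 4 genes over 4-fold higher on replicate 2 were Sox11 at 232/2391, Myh9, non-muscle myosin heavy chain, at 4045/19683, the chromatin protein Hmga2 at 2378/10292 and Bbip1 at 632/2889.5, and each had several probe sets above background. In none of the 4 did all of these rise by over 2-fold. Myh9 read 4234/3985, or 9486/3842, by other probe sets, and Sox11 read 243/349.7 by one of them. The gap of over 4-fold thus rests on 1 probe set in each of these 4 genes.

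The same genes were set side by side on the treated arrays, which share no array with the controls. Of the 31 genes higher on control replicate 1, 30 were higher on replicate 1 of both treated groups as well. All 4 genes in the other direction kept theirs. Over all genes above background that differed that way by any amount, the shares were 58.6% and 64.5%. They include small gaps, so they are not like for like with the genes over 4-fold apart. Igf2, for example, read 1076/54 in GFP-negative cells and 954/83.1 in GFP-positive cells. After scaling, the median over all probe sets was lower on replicate 2 of each group, at 122.6/79.9 in control, 134.8/79.8 in GFP-negative and 129.7/81.1 in GFP-positive cells. The labels do not say what replicates of 1 number share, and a cause was not tested. Xist, the RNA of the inactive X chromosome, read 5386/832 in controls, and was lower on replicate 2 by all 3 of its probe sets (1227.5/345.5 and 260.2/136 for the others). It read 4217/547 in GFP-negative cells and 3497/517.5 in GFP-positive cells. The Y-linked Kdm5d, Uty and Eif2s3y were near background on both control arrays, at 68.2/93.7, 55.3/9.0 and 39.4/1.5, although replicate 2 is labelled as of mixed sex. Of 9 Y-linked genes Orly alone passed, at 266/106.

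**Figure D4:**
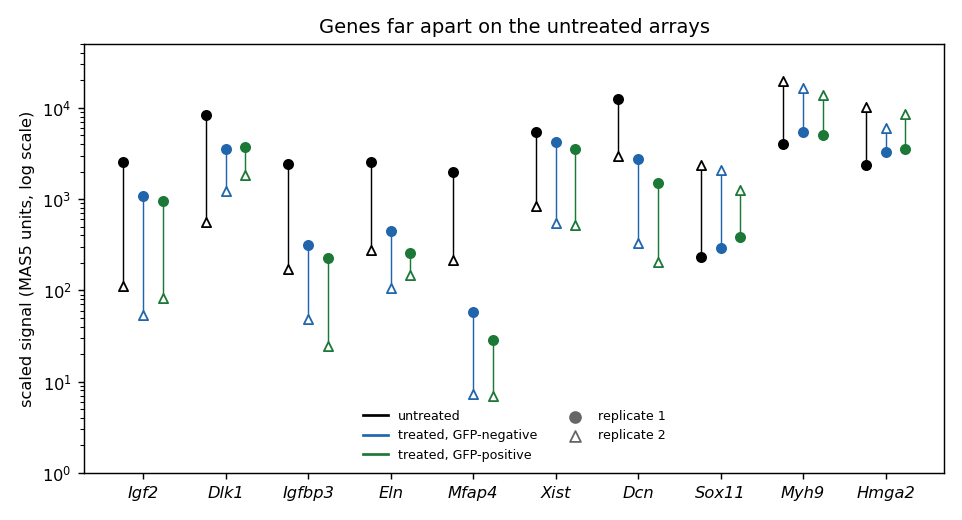
Scaled signal in MAS5 units (log scale) of 10 genes that lay far apart on the untreated arrays, in untreated (black), treated GFP-negative (blue) and treated GFP-positive (green) cells; circles are replicate 1, open triangles replicate 2, and lines join both. In every gene and group drawn, the order of replicate 1 and replicate 2 is that of the untreated pair.

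Promoter content differed between expressed and silent genes, in values the ranking did not use. A CpG dinucleotide is the substrate of DNA methylation, and promoters rich in it are usual for broadly expressed genes. The median window of 300 bases held 22 CpG for genes above background (8055 with a window) and 6 for those near background (5069 with one). Under 10 CpG were found in 13.1% of the former and in 61.5% of the latter. The hexamer TATAAA, searched on either strand, lay in 6.68% of windows of expressed genes, in 15.1% of those of genes near background, in 9.87% of those of all measured genes and in 14.2% of all windows, unmeasured genes included. Among the 127 windows of genes in the top 1% on both arrays it lay in 15.75%. The window of Dpp4 (chr2:62412182-62412481, minus strand) is shown as one of a gene near background, with its 4 CpG in capitals:
Dpp4: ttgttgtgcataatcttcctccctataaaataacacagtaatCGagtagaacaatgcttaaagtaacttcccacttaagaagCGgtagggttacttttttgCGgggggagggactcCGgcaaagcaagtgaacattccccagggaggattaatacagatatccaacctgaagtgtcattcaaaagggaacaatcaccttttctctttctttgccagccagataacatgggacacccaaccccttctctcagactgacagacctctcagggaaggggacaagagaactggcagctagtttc
Dpp4 held a TATAAA match as well, and Acta2, at the other end of the signal range, was almost as poor in CpG.

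**Figure D5:**
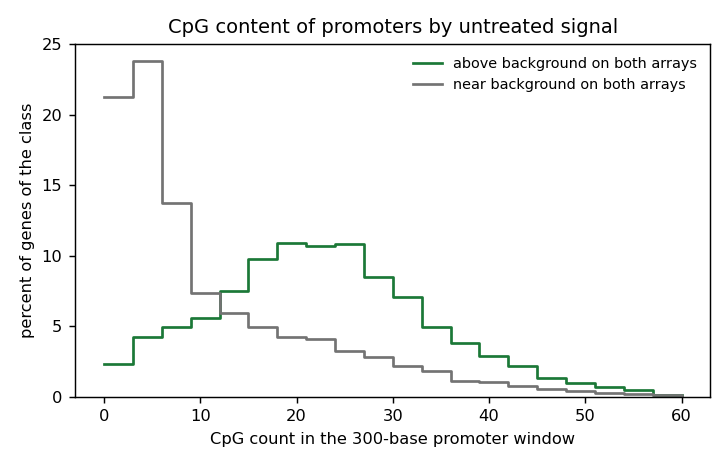
Percent of genes (y axis) by CpG count in the 300-base promoter window (x axis, bins of 3), for genes above background on both untreated arrays (green) and near background on both (grey). Genes near background pile up under 10 CpG, and the median of the expressed genes is 22.

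Finally, the untreated profile was set against the 4 treated arrays to see which of its features differed in the drug-treated, re-sorted cells; treatment and second sort cannot be told apart. By limma with Benjamini-Hochberg adjustment, 49 of 27022 probe sets (0.181%) passed an adjusted p of 0.05, 36 higher in treated cells (0.133%) and 13 lower (0.0481%). Of 635 list members tested, the signals of 4 were called lower after treatment and those of 6 higher. Over all 13223 genes tested, 8 were called lower and 24 higher. By sign alone, 336 of the 635 list members were lower and 299 higher. Ccn3 fell from 15436 and 9777 to between 243 and 709 on the treated arrays, a log2 difference, with the offset, of -4.72 ± 0.38 (SE, adjusted p = 0.00869). Its probe set ends in _x_at, the class that can bind transcripts of other genes. Fbln5 fell from 13877 and 17556 to between 3848 and 4904 (log2 difference -1.84 ± 0.18, adjusted p = 0.0208). Adamts1, a secreted protease, read 4291 and 4964 in controls and at most 1483 after treatment (-1.90 ± 0.19, adjusted p = 0.0230). Epha3 read 1097 and 890.0, against at most 228 (-2.29 ± 0.26, adjusted p = 0.0267). Ccn3 and Fbln5 were given as markers with earlier results of these data known, so their fall is no independent evidence. Krt18 and Krt8, partner keratins of simple epithelia, rose by 3.66 ± 0.26 and 3.19 ± 0.25 (adjusted p = 0.00793 and 0.00851), and Krt7 by 2.52 ± 0.34 (adjusted p = 0.0452). Krt8 and Krt7, which had not passed the background level on control replicate 1, reached at least 852 and 539 on every treated array. Nes, Fosl1 of the AP-1 family and Ereg, a ligand of the EGF receptor, rose by 1.65 ± 0.20, 2.05 ± 0.23 and 1.98 ± 0.23 (adjusted p = 0.0328, 0.0267 and 0.0291). In each of these 10 genes the treated and control arrays did not overlap. The genes were picked by that call on the same arrays, so the lack of overlap adds no support. The share of all genes without overlap was not counted. Of the 10, the count still called was 1 (Krt18) without control replicate 1, 3 without control replicate 2, 4 on leaving out replicate 1 or else replicate 2 of the GFP-negative cells, and 7 or 3 without replicate 1 or replicate 2 of the GFP-positive cells; no difference turned its sign.

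The other 4 given markers did not pass in this fit, which took no account of replicate number. Thbs2 differed by -1.01 ± 0.19 (adjusted p = 0.124), Prrx1 by -0.84 ± 0.17 (adjusted p = 0.153), Lum by -3.08 ± 0.63 (adjusted p = 0.164) and Col1a1 by -0.50 ± 0.30 (adjusted p = 0.868). The calls depend on this choice. With replicate number as a block limma called 1889 probe sets (6.99%), and by it the adjusted p was 0.000221 for Thbs2, 0.000927 for Prrx1, 1.53e-05 for Lum and 0.0488 for Col1a1. The labels do not say what a replicate number marks, so whether the arrays are paired is not settled. With the probe set brightest over all 6 arrays, the block called 544 of 13223 genes lower in treated cells (4.11%) and 605 higher (4.58%). Among matrix lists it called lower 4 of 10 fibrillar collagens, 3 of 20 other collagens, 3 of 21 collagen processing genes, 9 of 29 matrix glycoproteins, 8 of 22 proteoglycans, 7 of 15 elastic fibre genes and 12 of 30 proteases and inhibitors. It called higher 0, 1, 3, 2, 3, 2 and 2 of them. Of tubulins and intermediate filaments it called 10 of 27 higher and 0 lower, and of actins 5 of 41 higher and 1 lower. The 10 include the keratins Krt18, Krt8 and Krt7 named above, and Krt19. All these lists were chosen with earlier results of these data known, so their counts are no independent evidence. Counted by sign alone, whether called or not, 6039 of 13223 genes were lower in treated cells. The same counts were 7 of 10 fibrillar collagens, 12 of 20 other collagens, 12 of 21 collagen processing genes, 20 of 29 matrix glycoproteins, 15 of 22 proteoglycans, 12 of 15 elastic fibre genes and 21 of 30 proteases and inhibitors. The median log2 differences of these lists ran from -0.59 for elastic fibre genes to -0.16 for collagen processing genes, beside 0.04 over all genes tested. Of actins 9 of 41 were lower (median 0.17), and of tubulins and intermediate filaments 5 of 27 (median 0.40). With 3 residual degrees of freedom the count of 49 was sensitive to single arrays. It was 5 without control replicate 1, 15 without control replicate 2, 28 and 27 without GFP-negative replicate 1 or 2, 34 without replicate 1 of the GFP-positive cells and 11 without their replicate 2. Centring the arrays on their medians gave 28 higher and 23 lower probe sets.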

How the data were processed

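Total RNA of 6 samples was measured on Affymetrix mouse 430 2.0 arrays. The deposited table gives MAS5 signals, per the submitters' processing notes, as a linear intensity for every probe set; no source used here states its version or settings. Of 45101 probe sets, 64 controls were left out; 34945 had 1 gene symbol by GEO's platform annotation, 932 several and 9160 none. Of the former, 34741 were matched to a RefSeq table of GRCm38.p6. Scaling to a common 2% trimmed mean was needed for 2 treated arrays only (factors 8.06 and 9.90). Control arrays were used as deposited.

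Each gene took its probe set of highest mean signal over both controls. Background was the 90th percentile of 71 organ reference genes on each array. Treated cells were compared with limma 3.58.1 in R 4.3.3, on log2 of the signal plus 30.64, over all 6 arrays in 3 groups, contrasting the mean of both treated groups with control, with a mean-variance trend, two-sided. It covered the 27022 probe sets whose mean signal reached the 40th percentile (67.71). The code was tested on simulated data.

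Genes named are the brightest and dimmest members of each list, the 25 brightest genes, the given markers, the passing markers of other cell types, Xist and Y-linked genes, the genes furthest apart and the called list members; further members and genes far apart were named after their values were seen. The lists and markers were chosen with earlier results of these data known. Alternatives tried were other probe set rules, background levels, scalings, offsets, filters, fits and each array left out. The number of arrays limits the precision.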

Additional observations from a re-analysis of the deposited data

How the results depend on the processing

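The count of 9862 genes above background on both control arrays lay between 8284 and 10788 under other probe set rules, background levels and quantile normalization, and was 10655 or 10799 by the level of 1 array (without control replicate 1 or 2). List members above background numbered 483 of 809 measured, and 432 to 541 under these alternatives. The 1596 genes in the top 10% became 788 with the top 5%, by construction, and 1434 to 1819 otherwise. The rank correlation ranged from 0.905 to 0.937. The count of genes over 4-fold apart, 374, depended on the setting: 249 with quantile normalization, 247 with the mean of a gene's probe sets, 27 with 4 times the offset and 2561 with no offset, where dim genes dominate. For treated against control cells, the 49 calls became 81 with no filter, 137 with the treated groups as 1 group and 0 with no mean-variance trend, where limma still gave 1817 probe sets at an unadjusted p under 0.05 (2038 in the analysis reported). Leaving out 1 array gave 5 to 34 calls. With replicate number as a block there were 1889 calls (992 higher, 897 lower), the 49 included; deviations of same-numbered arrays from their group means correlated at 0.51 to 0.56 across groups, but with 2 numbers and no label of what a number marks this is a hint from the data, not a paired design. None of the 10 named treated-against-control differences changed its sign under the alternatives run. Of 44 named control signals, 16 moved by more than their SD with the mean of a gene's probe sets and 1 with quantile normalization. Of 36 counts of list members above background, 5 to 9 moved past 1.5 times under other background levels, the mean of probe sets or a single array. Of the 10 list members called in that comparison, all kept their call with the block and with no filter, none with no trend, and 4 with median centring. Leaving out probe sets with names ending in _s_at, _x_at or _a_at kept all 7 that still had their probe set. It gave no value for the other 3, Ccn3 (_x_at) and Krt8 and Krt7 (both _a_at). Signals near background carry little order, and 2 arrays give no error beyond their own difference.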
